A study of Drosophila melanogaster with 2 samples.

Results

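Hemocytes are the blood cells of *Drosophila*. Most are plasmatocytes, macrophage-like cells that engulf dead cells and bacteria, release antimicrobial peptides and secrete basement membrane proteins onto the tissues they reach. Crystal cells carry prophenoloxidases for melanization, and lamellocytes, which encapsulate parasites, are rare in healthy flies. In the adult, hemocytes circulate or sit on organs, so that a dissected ovary can carry some of them along.

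The cells described here were chosen by 4 hemocyte genes. *Hml* encodes a clotting protein, *He* a surface protein of hemocytes, and *NimC1* and *eater* encode phagocytic receptors of the Nimrod family. A barcode was a member if it had at least 1 unique molecular identifier (UMI, 1 captured RNA molecule) of at least 2 of these genes. It also had to pass a filter of at least 500 genes, at least 1000 UMIs and up to 20% of UMIs from mitochondrially encoded genes. Of 19009 barcodes past the filter, 61 were members, and the other 18948 served for comparison. These values of the 4 genes selected the cells, so they are given below as a description.

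Whole ovaries of *w1118(x)* females, a white-eyed laboratory strain carried by both groups, were sequenced with 10x Genomics 3′ chemistry at 1 week and at 6 weeks of age, and 1 library per age was analysed. The females had been kept with males, and ovaries were not enriched for their anterior part. With 1 library per age, age and library cannot be told apart, and cells of a library are not replicates. No p-value was therefore computed, and all intervals are 95% intervals for counting error only. The libraries held 147628511 and 162985928 UMIs over 33317 and 20224 barcodes, of which 9131 and 9878 passed the filter. They shared 178 barcodes, 26 of which passed the filter in both, and no member was among the shared barcodes.

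At 1 week 43 of 9131 kept barcodes were hemocytes, a share of 0.471% (exact binomial interval, 0.341 to 0.634%). At 6 weeks 18 of 9878 were, a share of 0.182% (0.108 to 0.288%). The 1-week share was 2.58-fold higher, a log2 ratio of -1.37 for 6 weeks over 1 week (interval, -2.25 to -0.55). The gate depends on depth: after each barcode was thinned to 1000 UMIs, 20 and 11 barcodes passed it, shares of 0.219% and 0.111%. The number of hemocytes that come with an ovary through dissection was not measured, and fewer hemocytes in the ovary and fewer carried along cannot be told apart.

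The 1-week hemocytes had a lowest, median and highest depth of 1584, 6997 and 27437 UMIs. At 6 weeks these values were 1595, 8812 and 56523. The other kept barcodes had medians of 10659.5 and 12587.5, so the typical hemocyte was shallower than its library. The deepest 6-week hemocyte alone held 19.1% of all hemocyte UMIs of its age. It had 34 UMIs of the 4 genes, 6 of them of *Hml* and 23 of *He*. Thinned to 1000 UMIs, the median hemocyte had 524 genes at 1 week and 538.5 at 6 weeks, against 472 and 480 in other barcodes. The unthinned medians were 1845 and 2200 genes in hemocytes and 2059 and 2274 in the others. Mitochondrial UMIs made up a median of 5.97% and 3.55% in hemocytes, and 14 of 43 and 4 of 18 hemocytes had over 10%.

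*Hml* (FBgn0029167, chromosome 3L, 13846054 to 13860001, plus strand) was detected in every one of the 61 members. Its level in CPM, the count scaled to 1000000 UMIs, was 5016 at 1 week and 1765 at 6 weeks over the summed hemocytes, and 0.465 and 0.176 in the other barcodes. Hemocytes held 97.1% and 95.2% of all *Hml* UMIs in kept barcodes. Over single cells, the lowest, median and highest *Hml* levels were 663, 4729 and 17185 CPM at 1 week and 91.8, 1369 and 10802 CPM at 6 weeks. The 2 ages overlapped, and 15 of 18 six-week cells lay below the 1-week median.

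*NimC1* (FBgn0259896) had 192 UMIs in 38 of 43 cells and 171 in 15 of 18 cells, or 523 and 579 CPM. *He* (FBgn0028430), its neighbor 3′ of it on the minus strand of chromosome 2L, had 14 UMIs in 9 of 43 cells and 41 in 11 of 18 cells, and no other kept barcode had any *He* UMI. *He* spans positions 13972096 to 13972947 and *NimC1* 13973158 to 13976769. *eater* (FBgn0243514, chromosome 3R, 27095867 to 27099679) had 94 UMIs in 30 cells at 1 week and 31 in 12 cells at 6 weeks. As a description of the selecting genes, the summed levels of *Hml* and *eater* were lower at 6 weeks and that of *He* higher. Of the 41 six-week *He* UMIs, 56.1% were in the deepest cell. *eater* was detected in 30 of 43 and 12 of 18 cells. The counting interval of *NimC1* included 0 (log2 ratio 0.15, -0.16 to 0.45).

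At 1 week 15, 22 and 6 members carried 2, 3 and 4 of the genes. At 6 weeks 4, 8 and 6 did. Just outside the gate stood 50 and 29 barcodes with 1 of the genes, which had a median of 1 UMI of it at a median depth of 16075.5 and 20167 UMIs. Just inside, members with 2 of the genes had a median of 28 UMIs of them at 1 week and 2.5 at 6 weeks. The 6-week group is the weaker one: 7 of its 18 cells had under 10 UMIs of the 4 genes together, against 2 of 43 at 1 week.

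The label was checked with genes that the gate had not used. *srp* encodes the GATA factor of blood cell fate, and it was detected in 34 of 43 and 15 of 18 hemocytes at 479 and 335 CPM. Other barcodes had *srp* at 26.9 and 39.7 CPM, with a UMI in 2018 and 3109 of them, so *srp* was 17.8- and 8.46-fold higher in hemocytes but not limited to them. Of 18 further plasmatocyte genes, *srp* included, 14 had at least 30 UMIs over the members, and 12 of these were at least 4-fold higher than in other barcodes in both libraries. Over all genes 394 of 2580 were, or 15.3%. The exceptions were *Pvr*, the PDGF/VEGF-like receptor (3.86- and 2.25-fold), and *ush*, a GATA cofactor (2.79- and 1.48-fold). *gcm*, *gcm2* and *NimC3* had no UMI in any hemocyte.

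Receptors of engulfment were among the 12. *crq*, a CD36-like receptor for dying cells, stood at 1263 and 1185 CPM, 23.4- and 17.7-fold above other barcodes. *drpr*, a receptor for cell debris, stood at 1059 and 1097 CPM (7.7- and 8.15-fold), and the scavenger receptor *Sr-CI* at 1372 and 914 CPM (480- and 339-fold). The secreted Nimrod proteins *NimB2* and *NimB5* stood at 1097 and 1307 CPM and at 490 and 471 CPM. All of these lay within 2-fold between the ages.

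**Figure D1:**
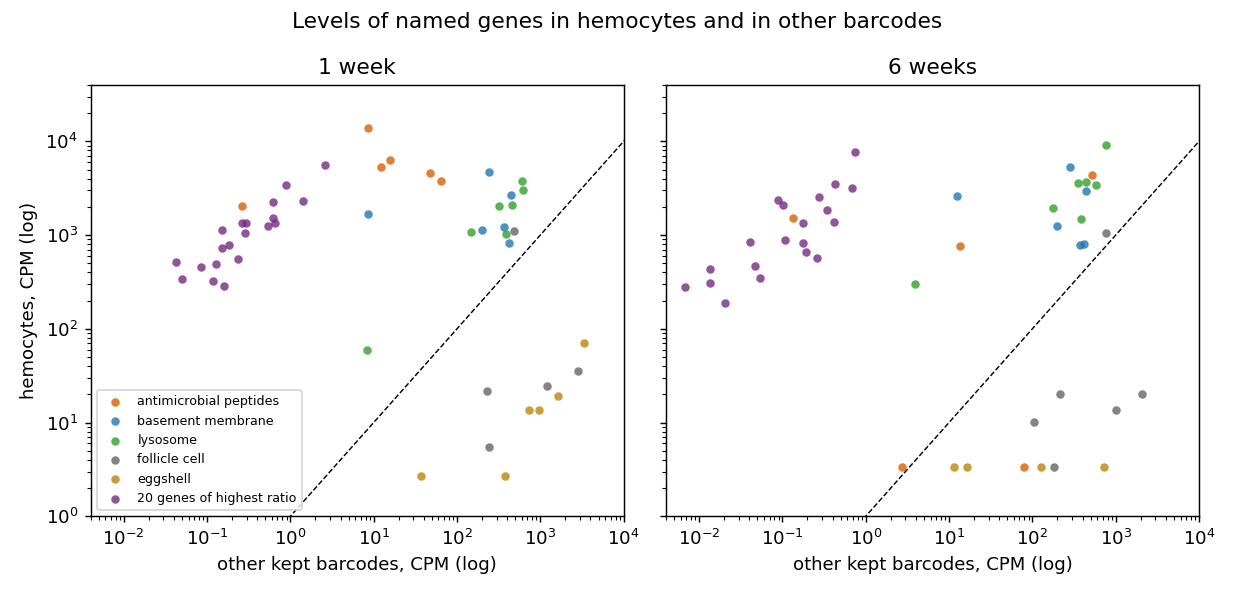
CPM of named genes in hemocytes (vertical) against all other kept barcodes (horizontal), on log axes, with 1 point per gene and 1 panel per age; the dashed line marks equal levels and genes at 0 in either group are not drawn. The 20 genes of highest ratio lie far above the line. The basement membrane and lysosome genes drawn, those of each list with most UMIs in hemocytes, lie above it. Most follicle cell and eggshell markers lie below it.

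Ranked by the smaller of the library ratios, among genes with at least 100 UMIs that were present in at least 25% of the hemocytes of each age, the 20 leading genes were *CG4950*, *ninaD*, *CG4927*, *CG42711*, *Had2*, *lectin-24Db*, *NtR*, *CG8501*, *NimB5*, *CG34331*, *TotM*, *NimB4*, *CG1092*, *nAChRbeta3*, *mthl2*, *CG43236*, *lectin-28C*, *CG10031*, *CG34437* and *Karl*. *lectin-28C*, a C-type lectin, was the most abundant, at 5650 and 7749 CPM against 2.63 and 0.746 CPM, and was present in every hemocyte of both ages. *Karl*, a lipocalin, was also in all 61, at 2333 and 3516 CPM. *ninaD*, a scavenger receptor known for carotenoid uptake, stood at 340 and 190 CPM. *TotM*, a stress-induced secreted protein, stood at 2237 and 3150 CPM in 12 of 43 and 13 of 18 cells (27.9% and 72.2%).

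These 20 genes were chosen on the members themselves, so their number per cell is a description. A 1-week hemocyte had at least 1 UMI of 9 to 20 of them (median 18), and a 6-week hemocyte of 10 to 20 (median 16.5). The 7 six-week cells with under 10 gate UMIs had 10 to 17. Barcodes with no gate gene had a median of 0, but 14 of 9038 at 1 week and 2 of 9831 at 6 weeks had 5 or more, as did 6 of 50 and 1 of 29 barcodes with a single gate gene. All of these barcodes stayed outside the group.

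Markers of other cells were counted in the same way. Over all genes, 216 of 2315 with enough expected UMIs (9.33%) were at least 4-fold lower in hemocytes in both libraries. Of the 8 follicle cell markers, 7 were, among them *Yp1*, *Yp2*, *tj* and *eya*; the 8 markers together took 0.119% and 0.111% of hemocyte UMIs and 0.543% and 0.452% of the others. The exception was *Fas3*, a cell adhesion protein, whose summed level was 2.24- and 1.35-fold above other barcodes. It had 402 and 307 UMIs in 18 of 43 and 11 of 18 hemocytes. Of other barcodes, 6951 of 9088 and 8486 of 9860 had it. With all barcodes thinned to equal depth, 25.6% and 44.4% of hemocytes and 32.1% and 42.7% of other barcodes had it. Of the hemocyte UMIs of the 8 markers, 3 cells held 51.4% and 72.6%. The median hemocyte had 0.0256% and 0.0623% of its UMIs in them, against 0.129% and 0.137% in other barcodes. Of 12 eggshell genes, 6 had enough expected UMIs, all 6 were lower, and the list took 0.0122% and 0.00135% against 0.761% and 0.119%. Germ cell markers (6 genes) held 3 and 2 UMIs over all hemocytes, gut and tubule markers (6 genes) 3 and 1.

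Of 6 fat body genes, *Lsp2*, *Fbp1* and *Fbp2* had no UMI in hemocytes, and they were also rare in other barcodes. The 1 gene with enough UMIs, *apolpp*, the precursor of the lipoprotein lipophorin, had 20 and 15 UMIs and was 11.4- and 16.5-fold higher in hemocytes. Of 4 neuron markers, *nSyb* and *pros* had no UMI in hemocytes, *elav* had 19 and 18 UMIs (1.06- and 1.08-fold of other barcodes), and *nrv3* was 7.17- and 81.5-fold higher. Of the escort cell markers, *Wnt4*, *Wnt2* and *Wnt6* had at most 1 UMI, while *fax* was in all 61 hemocytes at 2754 and 4752 CPM, against 230 and 304 CPM in other barcodes. Of the muscle list's 202 UMIs at 6 weeks, 88.6% came from 1 cell, in which 1.64% of UMIs were of muscle genes and which had 3 gate UMIs. No doublet caller was run, and the part of doublets and of free RNA in these values was not tested.

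The subtypes were unequal. *PPO1* and *PPO2*, the prophenoloxidases of crystal cells, had 168 and 175 UMIs at 1 week, all in 1 cell, the deepest of that age, with 46 *Hml* and 5 *He* UMIs. At 6 weeks the genes had 0 and 1 UMI. *lz*, a crystal cell factor, had 4 and 6 UMIs in all. Of the lamellocyte genes, *atilla* had 1 UMI and *PPO3* and *ItgaPS4* had 4 and 3 over the 61 cells, while *msn* (430 and 464 CPM) and *mys* (367 and 569 CPM), which many cells express, lay within 3-fold of other barcodes. *nec*, a serpin of the Toll pathway, was detected in 37 of 43 and 13 of 18 hemocytes, against 3.64% and 3.68% of other barcodes. Of the 129 and 169 kept barcodes with both *atilla* and *nec*, 1 and 0 were hemocytes.

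Basement membrane genes encode the sheet of collagen and laminin under epithelia. Of 14 in the files, 12 had at least 30 UMIs. In both libraries 6 of these were at least 4-fold higher than in other barcodes, against 15.3% of all genes. They were *SPARC*, *Col4a1*, *vkg*, *Ppn*, *Pxn* and *PH4alphaEFB*. *SPARC*, a collagen-binding protein, stood at 4692 and 5368 CPM against 243 and 280. The collagen IV chains *Col4a1* and *vkg* stood at 2673 and 2970 CPM and at 1121 and 1243 CPM, 5.99- and 6.82-fold and 5.69- and 6.23-fold above the rest. *Ppn*, papilin, at 1660 and 2605 CPM, had the highest ratio of them, 195- and 207-fold. The 61 hemocytes held 37.7% and 29.3% of all *Ppn* UMIs of kept barcodes, 5.65% and 3.70% of those of *SPARC*, and 1.83% and 1.35% of those of *Col4a1*. *trol*, also of this list, was lower in hemocytes, with 56 and 81 UMIs against 109929 and 158433 in other barcodes. Hemocytes held 0.0509% and 0.0511% of its UMIs, while they made up 0.471% and 0.182% of kept barcodes.

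Actin and migration genes were moderately high, and 0 of the 15 with enough UMIs passed 4-fold in both libraries, against 15.3% of all genes. *Act5C* stood at 7648 and 9121 CPM (2.76- and 2.50-fold), and *Rac2*, a GTPase of hemocyte migration, at 1067 and 864 CPM (5.39- and 3.21-fold). All 5 of the 8 melanization genes with enough UMIs passed it, among them the proteases *MP1* (35.8- and 15.8-fold) and *Hayan* (174- and 44.5-fold) and the serpin *Spn28Dc* (21.9- and 30.6-fold). *LpR2*, a lipophorin receptor, stood at 2101 and 1450 CPM (28.4- and 16.5-fold), and the iron carrier *Tsf1* at 449 and 224 CPM (59.0- and 25.3-fold). Of the glycolysis genes, 0 of 9 were at least 4-fold higher and 1 of 10 at least 4-fold lower, against 15.3% and 9.33% of all genes. The median log2 ratios of glycolysis genes to other barcodes were -0.89 and -0.44, against 0.57 and 0.52 over all genes.

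Levels at 6 weeks were then set against those at 1 week. The median log2 ratio over 2580 genes was 0.05 in hemocytes and 0.03 in the other barcodes. In hemocytes 172 genes (6.67%) were at least 2-fold higher at 6 weeks and 196 (7.6%) at least 2-fold lower. Of the 172, 166 had a counting interval wholly above 0, and of the 196, 177 wholly below. These intervals take each UMI as independent, and with 18 cells at 6 weeks a single cell can carry a gene, so the share in the highest cell is given where it decides a value.

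*Nplp2*, a neuropeptide-like precursor that is abundant in plasmatocytes, showed the clearest difference that many cells shared. It had 9620 UMIs at 1 week and 1007 at 6 weeks, or 26183 and 3411 CPM (log2 ratio -2.94, -3.04 to -2.85). At 1 week every cell had *Nplp2*, at a lowest, median and highest share of 0.00518, 1.85 and 13.7% of its UMIs. At 6 weeks 15 of 18 cells had it, at 0, 0.236 and 1.84%. All 18 six-week cells lay below the 1-week median, and 22 of 43 one-week cells lay above the highest 6-week cell. Without the highest cell of each age the log2 ratio was -3.34, and it ran from -3.34 to -2.71 over 13 alternatives. Other barcodes had 7.19 and 3.06 CPM (log2 ratio -1.23).

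The plasmatocyte list was examined in the same way. Its 14 genes with enough UMIs had a median log2 ratio of -0.47, against 0.05 over all genes. *Nplp2*, *Glt*, *Pxn* and *NimB1* were at least 2-fold lower and *NimC4* higher, against 7.6% and 6.67% of all genes. *Pxn*, peroxidasin, had 122 UMIs in 29 of 43 cells and 28 in 8 of 18 cells (log2 ratio -1.81, -2.46 to -1.21), and *Glt*, glutactin, 194 and 59 (-1.40, -1.85 to -0.97). *NimC4*, a receptor for dying cells, had 36 and 144 UMIs (2.32), 91.0% of the latter in 1 cell, and its log2 ratio without the highest cells was -0.23.

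**Figure D2:**
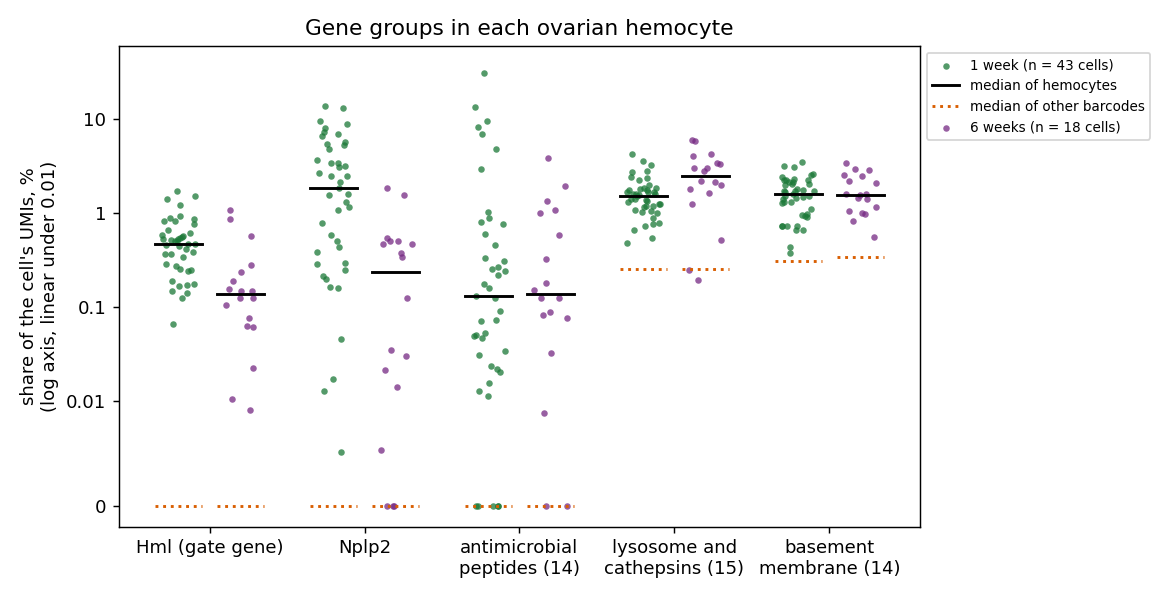
Share of each hemocyte's UMIs (%, log axis, linear under 0.01) in *Hml*, *Nplp2* and 3 gene lists, with 1 point per cell, green for 43 cells at 1 week and purple for 18 at 6 weeks; black bars are hemocyte medians and dotted bars medians of other barcodes. *Nplp2* medians are 1.85 and 0.236%, those of antimicrobial peptides 0.131 and 0.139% and those of lysosome genes 1.53 and 2.50%.

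Antimicrobial peptide genes, the effectors of the Toll and Imd pathways, differed in their summed UMIs. Together the 14 genes took 4.05% of hemocyte UMIs at 1 week and 0.740% at 6 weeks (log2 ratio -2.45, -2.52 to -2.39). Of the 12 genes with enough UMIs, 11 were at least 2-fold lower at 6 weeks and 0 higher, against 7.6% and 6.67% of all genes. The median log2 ratio of the 12 was -8.07, or -5.64 with every gene under 3 UMIs in a library placed at 3. *Drs*, the antifungal drosomycin, had 5049 and 1277 UMIs (13742 and 4325 CPM; -1.67, -1.76 to -1.58), *Mtk*, metchnikowin, 2311 and 447 (-2.05, -2.20 to -1.91), and *AttD*, attacin D, 1392 and 227 (-2.30, -2.51 to -2.10). Without the deepest 10% of cells *Drs* stood at -0.19 and *AttD* at 0.33, and with at least 3 gate genes per cell *AttD* stood at 0.49.

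The difference lay in a few cells. The median hemocyte had 0.131% of its UMIs in these genes at 1 week and 0.139% at 6 weeks, and 9 of 18 six-week cells lay above the 1-week median. At 1 week 7 of 43 cells had over 2%, the highest 30.9%, and all 7 were among the 9 deepest of that age. At 6 weeks 1 of 18 did, at 3.88%, a cell of 1600 UMIs. The 3 cells with the most such UMIs held 70.5% of them at 1 week and 78.04% at 6 weeks, and the highest cell alone held 43.6% and 37.9%. Without the highest cell of each age, the sums were 2.42% and 0.537% (log2 ratio -2.17). *Drs* was detected in 28 of 43 and 13 of 18 cells and *Mtk* in 28 and 12.

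A single 1-week cell of 21011 UMIs held 739 of 743 *AttC* UMIs, 98.5% of those of *DptA*, 72.2% of those of *Dro* and 59.1% of those of *DptB*. At 6 weeks *AttA*, *AttC*, *DptA* and *CecA1* had no UMI, which against 3 UMIs is at least 113-, 199-, 54.6- and 47.4-fold lower, and *Dro* and *DptB* had 1 each, from 1699 and 1950. *CecC*, named here after its value was seen, was the gene within 2-fold: it had 201 UMIs in 17 cells and 184 in 14 cells (log2 ratio 0.19, -0.11 to 0.48).

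Split at 10000 UMIs per cell, a line drawn after the values had been seen, the 11 deeper 1-week cells had 7.99% of their UMIs in antimicrobial peptide genes and the 32 shallower ones 0.220%. At 6 weeks the 9 deeper cells had 0.803% and the 9 shallower ones 0.294%. Among the shallower 6-week cells 62 of 106 such UMIs were in 1 cell of 1600 UMIs, and without the highest cell of each age the shallower cells had 0.184% and 0.128%. The order of the ages among the shallower cells therefore turned with 1 cell. *Nplp2* was lower at 6 weeks in both parts, with 1.20% and 0.321% in the deeper and 3.99% and 0.488% in the shallower cells. Over the 43 one-week cells, Spearman's rho between the antimicrobial peptide share and *Nplp2* was -0.38, and over the 18 six-week cells it was 0.37, as a description of cells that share a library and vary in depth.

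**Figure D3:**
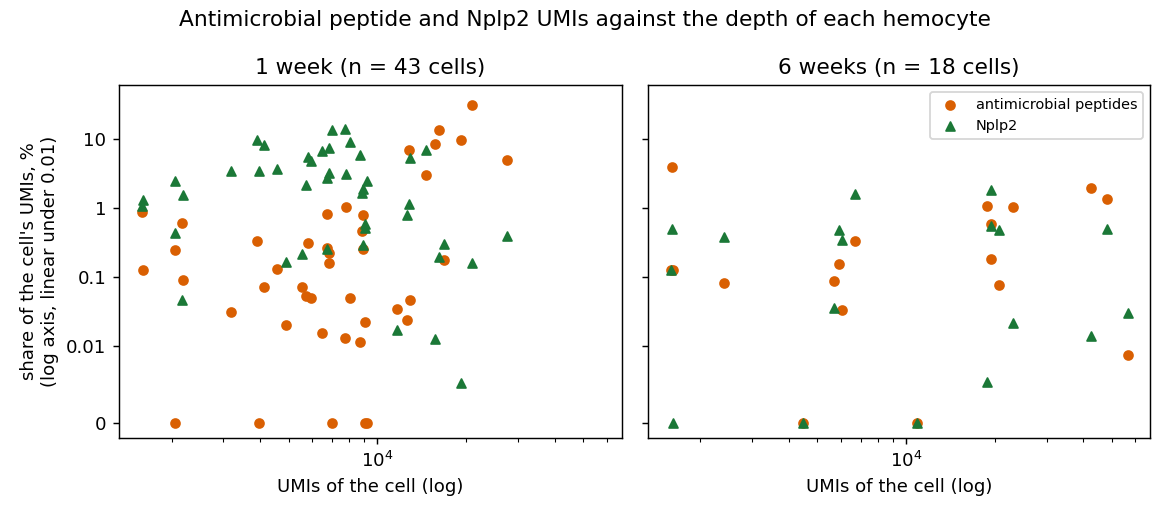
Share of UMIs (%, log axis, linear under 0.01) of 14 antimicrobial peptide genes (circles) and of *Nplp2* (triangles) against the UMIs of each hemocyte (log axis), with 43 cells at 1 week and 18 at 6 weeks. The 7 one-week cells over 2% antimicrobial peptides are all among the 9 deepest, and the highest reaches 30.9%.

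In the other barcodes the same genes were concentrated to different degrees. At 6 weeks the 10 highest of these barcodes held 26.4% of the *Dro* UMIs outside hemocytes, 44.7% of those of *CecA1* and 83.9% of those of *Def*. *Drs* stood at 8.53 CPM at 1 week and 519 at 6 weeks, opposite to hemocytes, and 10 barcodes held 98.3% of the 6-week *Drs* UMIs outside hemocytes. Hemocytes held 83.3% of the *Drs* UMIs of kept barcodes at 1 week and 1.64% at 6 weeks, and 55.5% and 95.7% of those of *Mtk*. *Def*, defensin, had 2 and 1 UMIs in hemocytes against 882 and 33853 outside.

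Of the Imd pathway, 13 genes had enough UMIs, with a median log2 ratio of -0.32. At 6 weeks 5 of them were at least 2-fold lower and 0 higher, against 7.6% and 6.67% of all genes. The list took 0.557% of hemocyte UMIs at 1 week and 0.239% at 6 weeks. The median cell was not lower at 6 weeks, with shares of 0.188% and 0.201%, while the highest cells had 1.69% and 0.938%. *PGRP-LB* and *PGRP-SC2*, amidases that cut peptidoglycan and damp the pathway, had the largest ratios of the list. *PGRP-LB* had 1008 UMIs in 12 cells and 108 in 9 cells (-2.91, -3.21 to -2.62), and with every cell weighted equally its ratio was -0.68. *PGRP-SC2* had 227 and 44 UMIs (-2.05, -2.55 to -1.58). The receptor *PGRP-LC* (-1.14) and *Tab2* (-1.17) had smaller ratios, and the interval of *Diap2* (-1.10) crossed 0. *Rel*, the NF-kB factor, differed by -0.24 (-0.53 to 0.04) and was 15.1- and 8.48-fold above other barcodes.

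Of the Toll pathway, 12 genes had a median log2 ratio of 0.00. Among them 1 was at least 2-fold higher and 1 lower, against 6.67% and 7.6% of all genes. *PGRP-SA*, a peptidoglycan sensor, was higher at 6 weeks, with 156 UMIs in 28 of 43 and 288 in 17 of 18 cells (1.20, 0.91 to 1.49), and *PGRP-SD* lower, with 79 and 3 UMIs, 59.5% of the former in 1 cell. Of the 7 Bomanin genes with enough UMIs, which encode short peptides of the Toll response, 4 were higher and 2 lower. Most of their 6-week UMIs, 83.9%, came from 1 cell of 42345 UMIs, and without the highest cell of each age the list's summed log2 ratio turned from 0.78 to -1.28. That cell also held 131 of 222 *nec* UMIs.

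Lysosome and cathepsin genes break down what a phagocyte takes up. The 15 genes took 1.45% of hemocyte UMIs at 1 week and 2.49% at 6 weeks (log2 ratio 0.77, 0.72 to 0.83, and 0.64 without the highest cells), while other barcodes had 0.305% and 0.325%. Over single cells the lowest, median and highest shares were 0.481, 1.53 and 4.22% at 1 week and 0.196, 2.50 and 6.04% at 6 weeks, and 14 of 18 six-week cells lay above the 1-week median. The difference was present in deeper cells (1.28% and 2.43%) and in shallower ones (1.62% and 2.87%).

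Of the 11 lysosome genes with enough UMIs, *Cp1* and *Npc2b* were at least 2-fold higher, *LManII* at least 2-fold lower, against 6.67% and 7.6% of all genes, 8 lay between, and the median log2 ratio was 0.52, against 0.05 over all genes. *Cp1*, a cathepsin L-like protease, stood at 3753 and 9253 CPM (1.30, 1.21 to 1.40) and ranged from 1.09 to 1.56 over 13 alternatives. *cathD*, cathepsin D, stood at 2020 and 3566 CPM (0.82, 0.68 to 0.96), *Lamp1*, a lysosomal membrane protein, at 2118 and 3641 CPM (0.78, 0.65 to 0.92), and *Npc2a*, a sterol carrier, at 1075 and 1937 CPM (0.85, 0.66 to 1.04). *CtsB1*, a cathepsin B, stood at 3062 and 3448 CPM (0.17, 0.05 to 0.29), and -0.02 without its highest cells, and *Sap-r*, a saposin precursor, at 1034 and 1480 CPM (0.52, 0.32 to 0.72). In other barcodes the ratios were -0.10 for *CtsB1*, 0.00 for *Sap-r*, 0.34 for *Cp1*, 0.16 for *cathD*, -0.06 for *Lamp1* and 0.27 for *Npc2a*. *LManII*, an alpha-mannosidase, had 85 UMIs in 31 cells and 14 in 9 cells (-2.29, -3.22 to -1.46).

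Basement membrane genes stayed close to level. Their 12 genes with enough UMIs had a median log2 ratio of 0.15, and the list took 1.38% and 1.53%. *Pxn* alone passed 2-fold, against 6.67% of all genes higher and 7.6% lower. *SPARC* had a ratio of 0.19 (0.09 to 0.29), *Col4a1* 0.15 (0.02 to 0.29), *Ppn* 0.65 (0.49 to 0.81) and *LanB1*, a laminin chain, -0.62 (-0.86 to -0.39). Actin and migration genes had a median of 0.32 beside 0.28 in other barcodes, with 0 of 15 past 2-fold.

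**Figure D4:**
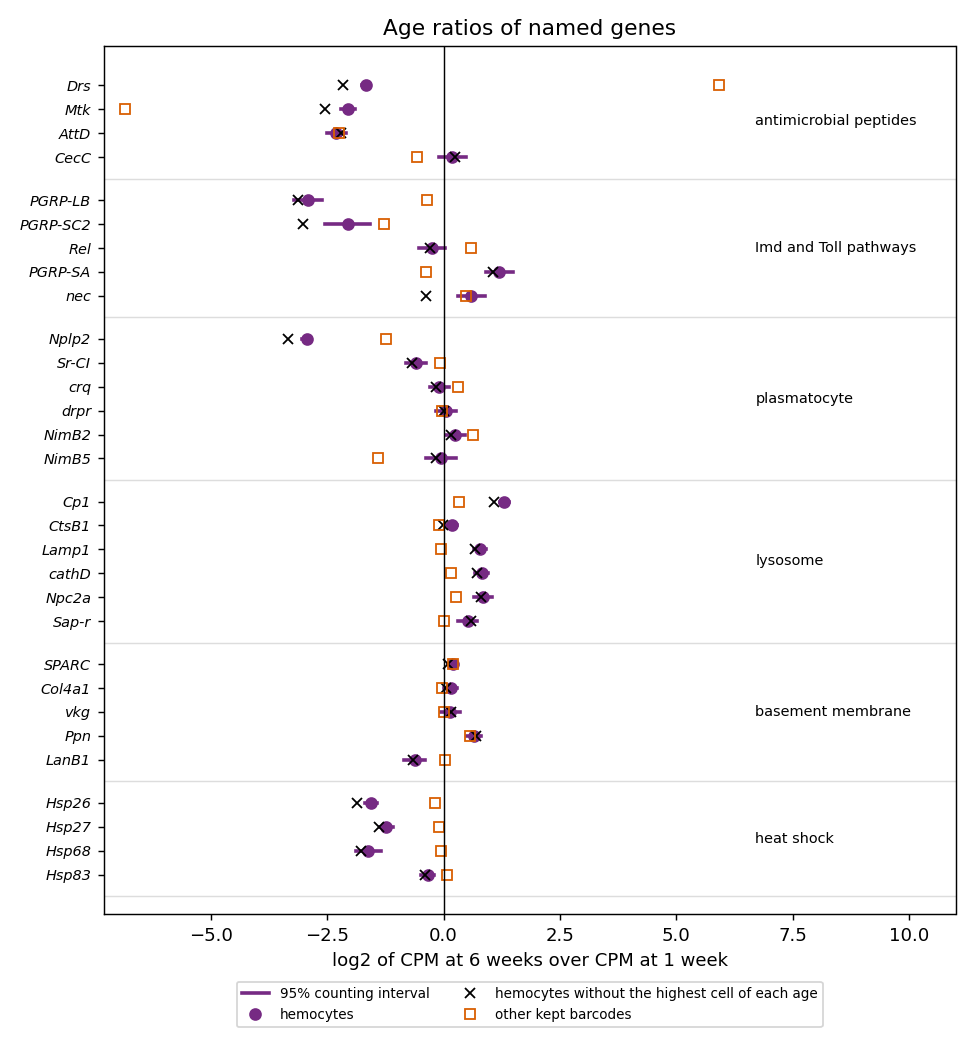
Log2 ratio of CPM at 6 weeks over 1 week for 30 named genes. Filled circles are summed hemocytes with 95% counting intervals, crosses are hemocytes without the highest cell of each age, and open squares are other kept barcodes. *Nplp2* lies at -2.94, *Cp1* at 1.30 and *SPARC* at 0.19, while *Drs* lies at -1.67 in hemocytes and 5.93 in other barcodes.

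Of 13 stress genes, 3 heat shock genes were at least 2-fold lower at 6 weeks, against 7.6% of all genes. *Mmp1* and *Ets21C*, targets of JNK signaling, were at least 2-fold higher, against 6.67% of all genes. *Hsp26* and *Hsp27*, small heat shock proteins, had 2235 and 610 UMIs (-1.56, -1.69 to -1.43) and 1679 and 574 UMIs (-1.23, -1.37 to -1.10), and *Hsp68* 548 and 144 (-1.61, -1.89 to -1.35). In other barcodes their ratios were -0.18, -0.10 and -0.05. *Hsp83* differed by -0.34. *Mmp1*, a matrix protease, had 22 and 56 UMIs (1.66, 0.93 to 2.45), and 27 of the 56 were in 1 cell. *Ets21C* had 16 and 38 (1.56, 0.69 to 2.51). The response of these cells to dissociation was not measured.

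By the rule for the largest age ratios, among 976 genes with at least 100 UMIs that were present in at least 10 cells, the 8 highest were *nrv3*, *Npc2b*, *NimC4*, *stg*, *CG1648*, *Shmt*, *Sid* and *sano*. *nrv3*, a subunit of the sodium pump that also stands in the neuron list, had 13 UMIs in 7 of 43 cells and 93 in 11 of 18 cells (3.15, 2.31 to 4.12). The neuron list took 0.00871% and 0.0376% of hemocyte UMIs, most of it *nrv3*, and the part of neuronal RNA in this ratio was not tested. *Shmt*, of one-carbon metabolism, had 29 UMIs in 13 cells and 89 in 14 cells (1.93, 1.31 to 2.59). *stg*, the Cdc25 phosphatase that starts mitosis, had 39 and 142 UMIs (2.18), but 81.7% of the latter were in the deepest cell, and without the deepest cell of each age the ratio was -0.07. *CG1648* had 71.4% of its 6-week UMIs in 1 cell, and its ratio of 2.12 was 0.51 without the deepest cell of each age and 0.82 with every cell weighted equally. With equal weights *sano* stood at 0.62 in place of 1.67.

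The 8 lowest were *Dro*, *E(spl)mbeta-HLH*, *Nplp2*, *PGRP-LB*, *CG43236*, *AttD*, *cpx* and *CG42369*. *E(spl)mbeta-HLH*, a Notch target, had 387 UMIs in 27 of 43 cells and 33 in 5 of 18 cells (-3.24, -3.80 to -2.72), with -0.11 in other barcodes. Of the 33, 84.8% were in 1 cell, and the ratio was -5.49 without the highest cell of each age and -5.62 without the deepest. *CG43236* had 1248 UMIs in 40 cells and 170 in 13 cells (-2.56, -2.80 to -2.33), and *CG42369* 168 in 36 cells and 31 in 11 cells (-2.12, -2.73 to -1.56). Of the 12 cell cycle genes, 11 had under 30 UMIs, *stg* being the other, and the list took 0.0147% and 0.0728% of hemocyte UMIs against 0.0845% and 0.0841% of the others. Of the 215 six-week UMIs of the list, 176 were in the deepest cell, and without the highest cell of each age the shares were 0.0130% and 0.0163%. The deepest 6-week cell also held 92.4% of the hemocyte *Tep1* UMIs of its age. Its share of lysosome and cathepsin UMIs, 0.196%, was the lowest of the 61 cells. It had a UMI of 16 of the 20 genes of highest ratio to other barcodes.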

How the data were processed

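Ovaries at 1 week and 6 weeks were measured in 1 droplet library each. Values are counts of UMIs as the authors deposited them, in whole numbers and not normalized, over 13942 genes. Whether barcodes had been filtered before deposit was not tested. The submitters' processing notes name Cell Ranger 9.0.0 and BDGP6. A legend in the study's supplement speaks of replicates by age; the barcodes of each library carry no mark of them, so each library was taken as 1 sample. The labels name kit version 4 and the methods an earlier one as well.

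UMIs were summed over members and over other kept barcodes of each library and scaled to CPM. CPM intervals were exact Poisson and ratios and shares exact binomial (Clopper-Pearson), at 95%. A gene needed 30 UMIs over the members, or as many expected ones for lower calls. Called genes were at least 4-fold different from other barcodes in both libraries, or at least 2-fold different between ages; gate genes were left out. Zero counts were set to 3 for bounds. Named genes were the gate genes and *srp*, up to 6 members with most UMIs of each of 21 gene and 10 cell type lists, the 20 highest ratios to other barcodes, and the 8 highest and 8 lowest age ratios without mitochondrial genes; others are named where they make or break a list's count, are exceptions, or lead a single cell, and these were chosen after their values were seen. Members and lists were chosen with earlier results of these data known. Positions are from Ensembl BDGP6 annotation, in which 13879 gene identifiers matched. The age ratios were tested on simulated sums of independent counts. These held no single cells, so that test cannot show how ratios or intervals hold where 1 cell carries a gene. Alternatives covered the cell filter, gate, scaling, gene minimum and deep cells. Python 3.11.15, numpy 2.4.6, scipy 1.17.1, pandas 2.3.3 and matplotlib 3.10.9 were used.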

Additional observations from a re-analysis of the deposited data

Results flagged for a closer look

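In the 1-week library 14 barcodes passed the gate but not the filter on cells, above the limit of 3 that a count of 0 allows. Of these, 13 were over the mitochondrial limit, and their median depth was 996.5 UMIs. At 6 weeks there were 3.

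Several named genes went opposite ways with age in hemocytes and in other barcodes; the difference between the groups was not tested, and each group is a single library per age. In hemocytes the log2 ratio of 6 weeks over 1 week was 2.33 for *Npc2b* (-1.09 in other barcodes), 1.79 for *Sid*, a nuclease (-1.41), and -1.67 for *Drs* (5.93). The Bomanin genes *IM23*, *IM1* and *IM3* had 1.47, 4.27 and 1.69 in hemocytes and -3.70, -2.09 and -1.96 in other barcodes, where they had at most 78 UMIs in a library. In the 6-week hemocytes 79.5%, 86.0% and 85.3% of their UMIs were in 1 cell, and without the highest cell of each age the ratios were 0.13, 2.58 and 0.77.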

How the results depend on the processing

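The 1-week share of 0.471% was 0.336% with no mitochondrial limit, 0.307% with at least 3 of the 4 genes and 0.219% after thinning to 1000 UMIs. The other shares, also with at least 10 gate UMIs (an alternative chosen after seeing the data), stayed within the counting interval. With a minimum of 100 UMIs per gene, 230 genes were at least 4-fold higher and 73 at least 4-fold lower than in other barcodes, and with a minimum of 10, 387 were lower. For age, a minimum of 10 gave 538 higher and 464 lower genes and a minimum of 100 gave 37 and 63; these counts change because the number of genes tested changes. With every barcode weighted equally 210 were higher, of which 103 were among the 172, and 249 lower, of which 133 were among the 196. Of 207 values of 16 named age ratios, 162 stayed within the counting interval, 39 moved and 6 changed sign: *NimC4* was -1.11 with 2 UMIs of each gate gene and -0.23 without its highest cells, *stg* -0.026 without the deepest 10% of cells and -0.075 without the deepest cells (chosen after seeing the data), and *AttD* 0.49 with at least 3 gate genes and 0.33 without the deepest 10%. Without the deepest 10% *Drs* was -0.19, and of the 172 higher and 196 lower genes, 78 and 95 kept their call. The cause was not tested. Of 200 values of the ratios of the 20 leading genes to other barcodes, 133 stayed within the counting interval and 67 moved. A choice of high ratios leaves no room for a change of sign. With a stricter gate, barcodes that no longer passed it counted as other barcodes. With at least 3 gate genes *CG4950* went from 13.58 to 9.82 at 1 week. A minimum of 10 or 100 UMIs cannot change a named gene's own ratio. These alternatives stayed by construction, here, among the 207 values and in the ranges over 13 alternatives. No paired analysis was possible because 1 library per age was given, with no replicates marked in it. With 18 cells at 6 weeks, genes under 30 UMIs entered no count of age calls, and where named they are given as UMIs.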
